A study of Bos taurus with 18 samples.

Results

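The nucleolar and ribosome biogenesis genes described here are 51 of the 21668 genes in an expression table of bovine oocytes and embryos. They were chosen by symbol: every name starting with NOP, UTP, RRP or EXOSC and a digit, with NOL and a digit or C, the symbols IMP3 and IMP4, and NCL, NPM1, FBL, DKC1, GAR1, NHP2, BOP1, PES1, WDR12, NIP7 and LOC617204. By role they comprise 3 C/D box core proteins, 4 H/ACA core proteins, 18 proteins of the small-subunit processome and 40S assembly, 13 of 60S assembly, 8 exosome subunits, 3 nucleolar scaffold or chaperone proteins, and 2 genes, NOL3 and NOL4, that carry a nucleolar name but no assembly role here. LOC617204 is HEATR1 in the RefSeq gene table. Of the 51 names, 50 matched that table, and UTP11L did not.

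Ribosomes are built in the nucleolus, where RNA polymerase I transcribes one long ribosomal RNA precursor that is folded, chemically modified and cut into mature rRNAs. Small nucleolar ribonucleoproteins (snoRNPs) of the C/D box and H/ACA box classes guide 2'-O-methylation and pseudouridylation of that precursor. The small-subunit processome and the 60S assembly factors process it, and the RNA exosome trims 3' ends and destroys the spacers. In mammalian oocytes the nucleolus becomes compact and transcriptionally silent at the end of growth, and functional nucleoli form again after fertilisation, in cattle at about the time of major embryonic genome activation. The transcripts described here are the mRNAs of this machinery, not rRNA or nucleolar activity.

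RNA-seq was done on 18 libraries, 3 for each of 6 stages, each from a pool of 10 denuded oocytes or embryos. Germinal vesicle (GV) oocytes were collected before maturation and MII oocytes, arrested at metaphase II, after they had matured in vitro with FSH, LH and oestrous cow serum, both from German Simmental ovaries of an abattoir. The embryos, collected with 4, 8 or 16 cells or as blastocysts, were German Simmental x Brahman crosses, made by in vitro fertilisation with heparin and semen of a commercially available Zebu bull and cultured in synthetic oviduct fluid with serum. Breed cross and fertilisation therefore enter together between MII oocytes and 4-cell embryos and cannot be told apart. No label says that the pools of a stage came from separate collections, so the p-values measure the spread between pools, which may be technical.

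Libraries held 2438473 to 11971840 reads on genes, with 16-cell replicate 2 the shallowest, and 11970 to 15399 genes with reads. All 51 genes had reads, and each library had reads for 50 or 51 of them. Among them, 2 libraries stood apart: 16-cell replicate 1 and 8-cell replicate 2 detected the fewest genes, 11970 and 12393. The stage labels matched the summed oocyte and blastocyst markers. Normalised counts (reads divided by a library's size factor) of 8 oocyte markers summed to 66766 to 93211 in GV oocytes, 31436 to 59822 at the 8-cell stage, 4592 to 11799 at the 16-cell stage and 84.2 to 176 in blastocysts, while 8 blastocyst lineage markers summed to 23048 to 55287 in blastocysts and 541 to 717 in GV oocytes. In blastocysts that last sum was mostly KRT8 and KRT18 (means 19587 and 13818), and GATA3, POU5F1 and PAG2 were also highest there. The others did not follow the sum. NANOG had a mean of 1537 at the 16-cell stage and 168 in blastocysts. CDX2 had a mean of 145 at the 8-cell stage, but a median of 49.9 and a range of 42.8 to 341 there. In blastocysts its mean was 144, with a range of 88.1 to 213. SOX2 had a mean of 178 in GV oocytes and 189 in blastocysts. Of the oocyte markers, BMP15 had a mean of 13890 in GV oocytes, 23305 at the 8-cell stage and 4624 at the 16-cell stage. The others had lower means at the 8-cell stage than in GV oocytes, although ZP2 had 31150 in GV and 40913 in MII oocytes. The 11 cumulus and granulosa markers summed to 2313 to 2659.5 in GV oocytes, mostly from STAR and HAS2, 1571 to 2840.5 at the 8-cell stage, 312 to 799 at the 16-cell stage and 368 to 621 in blastocysts. Within that list FOXL2 and TNFAIP6 had no reads in GV oocytes, whereas GV replicate 3 stood out with 94.6 for FSHR, 90.9 for INHA, 97.5 for INHBA and 74.8 for CYP19A1, against at most 2.12, 5.65, 33.9 and 19.8 in the other GV libraries. AMH, AMHR2 and PTX3 had at most 3.53 in any GV library, and HAS2 and STAR were not highest in GV replicate 3. Blastocysts, too, had 20.3 to 53.7 for FSHR and 224 to 460 for CYP19A1. The part of such RNA in comparisons with GV oocytes was not tested as a cause; values without GV replicate 3 are given with them.

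The 51 genes together took 0.290% to 0.351% of the reads in every oocyte and 4-cell library, and their share was highest in 16-cell embryos. Their share was 0.323% ± 0.0177 in GV oocytes, 0.334% ± 0.0184 in MII oocytes, 0.319% ± 0.0308 at the 4-cell stage, 0.399% ± 0.116 at the 8-cell stage, 0.812% ± 0.0645 at the 16-cell stage and 0.517% ± 0.042 in blastocysts (SD, n = 3 each). The single 8-cell libraries had 0.378%, 0.295%, 0.523%, with replicate 2 below every 4-cell library but one and replicate 3 above them all. The 16-cell libraries had 0.886%, 0.780%, 0.769% and the blastocyst libraries 0.551%, 0.470%, 0.528%. Neither group overlapped the other or any earlier stage except where 8-cell replicate 3 lay inside the blastocyst range. The 16-cell share was 2.04 times the 8-cell share, and the blastocyst share was 0.636 times the 16-cell share and 1.6 times the GV share. Exact two-sided permutation tests gave p = 0.1 for each of these 3 comparisons, the smallest p that 3 libraries against 3 allow, and p = 0.5, 0.7 and 0.3 for MII against GV, 4-cell against MII and 8-cell against 4-cell. Values are relative to each library's total, so a higher share and a lower total of other transcripts cannot be told apart. Amounts of RNA per embryo or per cell cannot be read from these shares.

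**Figure D1:**
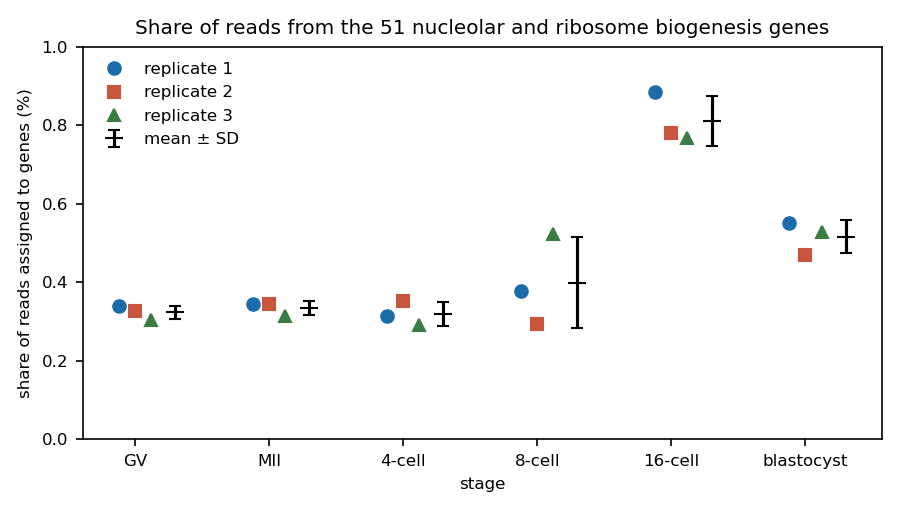
Percentage of gene reads that fell on the 51 genes (y axis, starting at 0) by stage (x axis); points are the single libraries and bars the stage means. The 3 16-cell libraries sit between 0.769% and 0.886%, above all others, and the 8-cell libraries spread from 0.295% to 0.523%.

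Without NOP58, NCL, UTP6, NOL7 and EXOSC9 the share still read 0.242%, 0.242% and 0.258% in GV, MII and 4-cell samples and 0.326%, 0.609% and 0.343% at the 8-cell, 16-cell and blastocyst stages. The 16-cell stage was then still the highest, but the blastocyst range, 0.337% to 0.351%, lay inside the 8-cell range, 0.243% to 0.422%. Of the 51 genes, 37 (72.5%) had their highest stage mean in 16-cell embryos, where 21.5% of all genes tested had theirs. The remaining 14 peaked in blastocysts (4), 4-cell embryos (4), MII oocytes (3), GV oocytes (2) or 8-cell embryos (1). All 3 C/D core genes, all 3 scaffold genes, 15 of 18 small-subunit genes and 10 of 13 60S genes peaked in 16-cell embryos, against 2 of 4 H/ACA genes and 4 of 8 exosome genes. The lowest stage mean was found in 4-cell embryos for 15 genes, MII oocytes for 12, GV oocytes for 10, 8-cell embryos for 7, blastocysts for 5 and 16-cell embryos for 2.

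**Figure D2:**
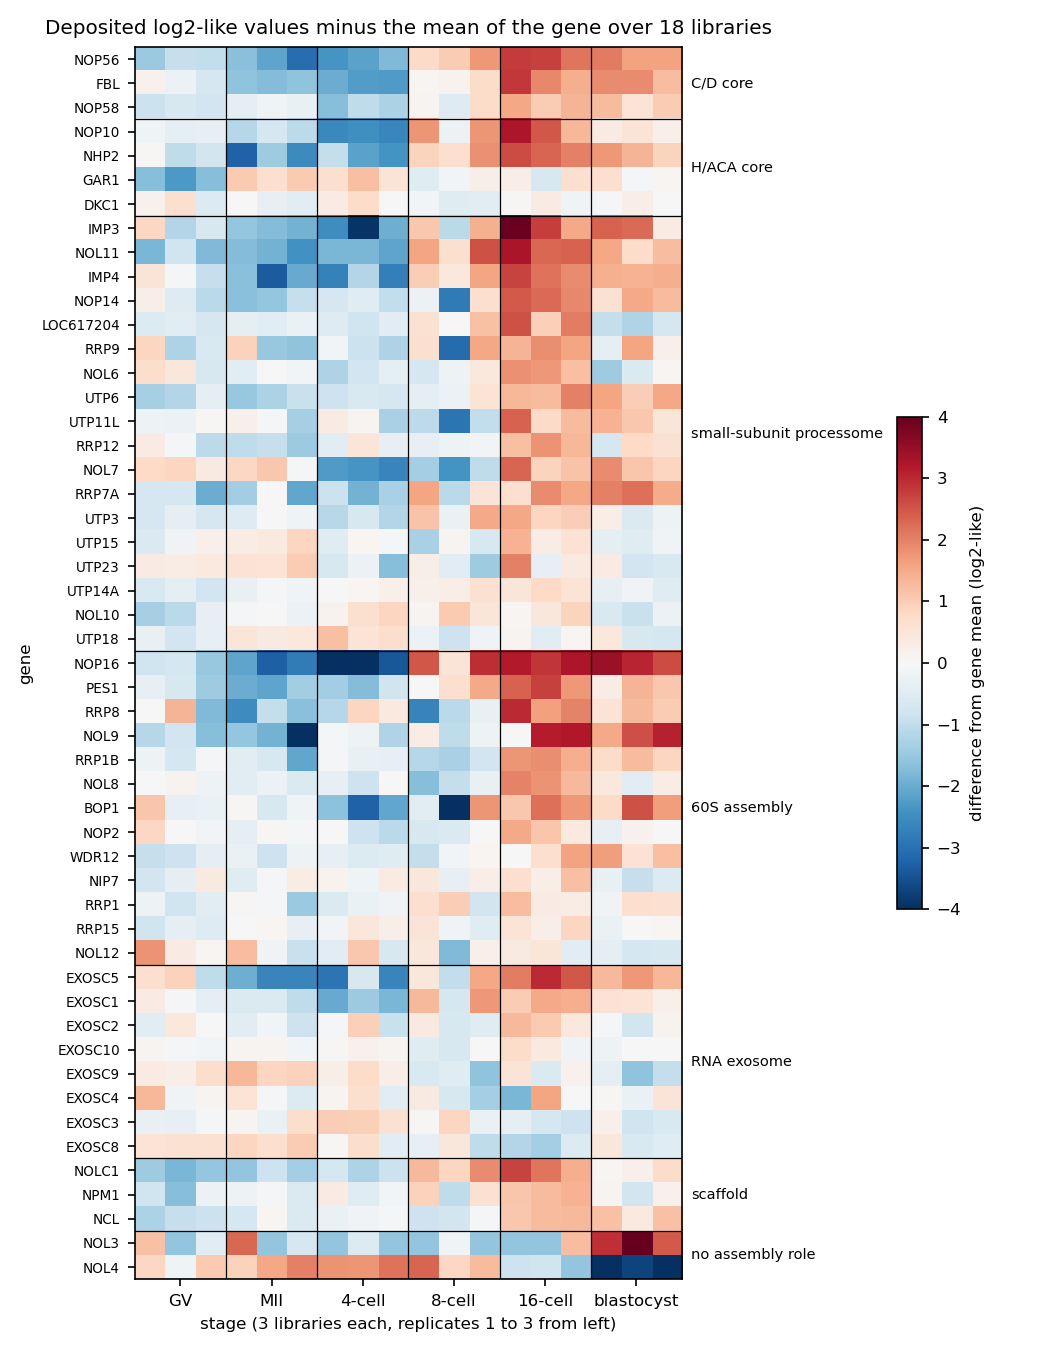
Each row is one of the 51 genes, grouped by role, and each column one of the 18 libraries in stage order; colour is the deposited log2-like value minus that gene's mean over all libraries, with the colour scale ended at 4 in either direction. Most rows have their highest values in the 3 16-cell columns, whereas EXOSC9 and NOL4 are high in oocytes and early embryos and low in blastocysts.

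Each stage was compared with the one before it, and the blastocyst with the GV oocyte, on the deposited log2-like values with limma's moderated test, fitted over all 17138 genes with a read in at least 3 libraries. A gene is said to have risen or fallen where its Benjamini-Hochberg adjusted p over all these genes was under 0.05. Neighbouring comparisons share the libraries of 1 stage and are not independent of one another. Differences below are on this scale, later stage minus earlier, with their standard error (SE) and n = 3 libraries per stage. All stages were fitted together, so a gene has the same SE in every comparison. That SE pools the spread within all stages and is not the spread of the compared stages alone. Where a gene's values are given below, they are its normalised counts in replicates 1, 2 and 3. A call lost without 1 library, or under another setting of the fit, is said to be so beside the gene. Leaving out 8-cell replicate 2 and 16-cell replicate 1 together lost 11 calls. Lost were the 16-cell rises of BOP1, EXOSC5, IMP3, LOC617204, NOP2, NOP56, NOP58 and PES1 (adjusted p between 0.0657 and 0.482). The blastocyst falls of EXOSC9, NOP2 and UTP15 against 16-cell embryos were lost too (adjusted p between 0.0745 and 0.145).

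Before activation almost nothing in the group passed the test. In MII against GV oocytes 1 gene rose, GAR1, and none fell, where 0.0992% and 0.613% of all genes did. The members' median difference was -0.26, against 0 over all genes, and 9 members (17.6%) had an unadjusted p under 0.05, where 8.25% of all genes did. In 4-cell embryos against MII oocytes 1 gene fell, NOL7, and none rose, where 0.729% and 0.0642% of all genes did, with a median of 0.10 against 0 and 10 members (19.6%) at an unadjusted p under 0.05, where 7.7% of all genes were. With library medians set equal, the MII calls over all genes numbered 22 higher and 58 lower, against 17 and 105 as deposited, and GAR1 was still the only member called. The test with array weights, which down-weights variable libraries, called more members, 3 risen and 5 fallen in MII oocytes and 1 risen and 6 fallen in 4-cell embryos. It also called more of all genes, 255 higher and 593 lower in MII oocytes and 272 higher and 731 lower in 4-cell embryos, against 11 and 125 in the reported fit of 4-cell embryos. Without GV replicate 3, GAR1 remained the only member called in MII oocytes. A fit of both stages alone, without the spread of the other stages, called 2 members risen and 2 fallen in MII oocytes. In 4-cell embryos such a fit called 0 risen and 3 fallen. Its calls over all genes were 153 higher and 405 lower in MII oocytes and 79 higher and 381 lower in 4-cell embryos.

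At the 8-cell stage 13 members rose and 2 fell against the 4-cell stage, that is 25.5% and 3.92% of the 51, where 8.64% and 4.13% of all genes did. The genes that rose were all 3 C/D core genes (NOP56, NOP58 and FBL), NOP10 and NHP2 of the H/ACA core, IMP3, IMP4, NOL11 and UTP3 of the small-subunit pathway, NOP16 and PES1 of 60S assembly, the scaffold gene NOLC1 and the exosome cap gene EXOSC1. UTP18 and EXOSC9 fell. The median difference was 0.25, against 0 over all genes. The 8-cell replicates spread widely: replicate 2 was the lowest of its stage for 28 of the 51 genes and for 10 of the 13 that rose, and replicate 3 was the highest for 32. With library medians set equal, calls over all genes were 1205 higher and 1016 lower, against 1480 and 708 as deposited, and the members' counts were again 13 and 2. Without 8-cell replicate 2 and 16-cell replicate 1, 18 members rose and 2 fell, while calls over all genes were 2167 higher and 1037 lower.

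At the 16-cell stage 21 members rose (41.2%) and 1 fell (1.96%) against the 8-cell stage, where 14.8% and 16.3% of all genes did. The members' median difference was 1.19, against 0 over all genes. The 3 C/D core genes rose here as well, with 9 small-subunit genes, 7 60S genes, EXOSC5 and NCL, and NOL4 fell. No H/ACA gene was called. All 13 60S genes and 17 of 18 small-subunit genes had a positive difference. Without 8-cell replicate 2 and 16-cell replicate 1, 14 members rose and 1 fell, while calls over all genes were 2016 higher and 2407 lower, against 2537 and 2800 with all libraries. Summed oocyte markers were lower over the same step, as given above, and their part in these relative values was not tested.

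In blastocysts most of the called members were lower. Against 16-cell embryos 1 member rose (NOL3, 1.96%) and 16 fell (31.4%), where 18.2% and 13.1% of all genes did. The members' median was -0.88, while that of all genes was 0.18. The 16 were 8 small-subunit genes, 3 60S genes, NPM1 and NOLC1, NOP10, EXOSC9 and NOL4, and no C/D core gene was among them. The count rests in part on single libraries, since 1 member rose and 9 fell without blastocyst replicate 2, where calls over all genes also dropped, to 2359 higher and 1888 lower. Without 16-cell replicate 1 and 8-cell replicate 2, 1 member rose and 14 fell, and 2947 of all genes were called higher and 2433 lower. With library medians set equal, calls over all genes were 2408 higher and 2874 lower, against 3117 and 2250 as deposited, and 1 member rose and 19 fell.

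Over the whole series, blastocysts against GV oocytes, 17 members rose (33.3%) and 2 fell (3.92%), where 25.6% and 20.4% of all genes did. The members' median was 0.77, against 0.26 over all genes. Without GV replicate 3, 15 members rose and 3 fell, and calls over all genes were 3834 higher and 3145 lower, against 4383 and 3490 with all libraries. An F test over all 6 stages called 42 of the 51 members, with 67% of all genes called.

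**Figure D3:**
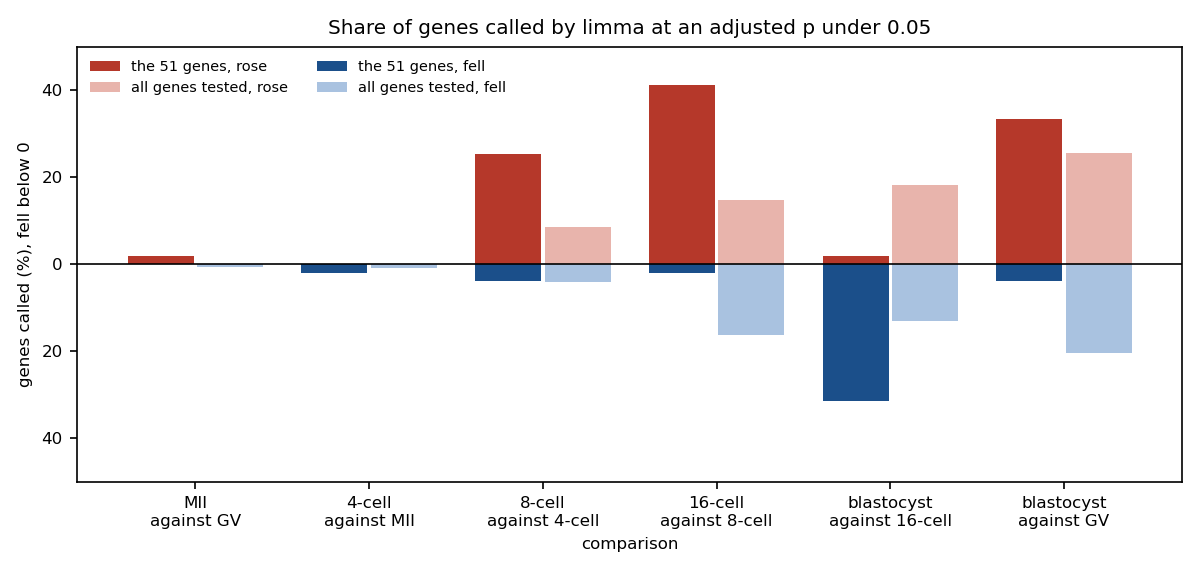
Percentage of genes that rose (above 0 on the y axis) or fell (below 0) in each comparison (x axis). The comparisons are each stage with the one before it, and blastocysts with GV oocytes. Dark bars are the 51 genes and pale bars all genes tested. Of the 51 genes, 1, 0, 13, 21, 1 and 17 rose and 0, 1, 2, 1, 16 and 2 fell.

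The 3 C/D box core genes rose at both the 8-cell and the 16-cell stage. NOP56 and NOP58, a pair of scaffold proteins that bind the guide RNA, and FBL (fibrillarin), the methyltransferase that they position, had their lowest stage means in 4-cell embryos or MII oocytes. NOP56 had 162, 238 and 229 in GV oocytes, 142, 103 and 52.4 in MII oocytes and 86.1, 101 and 132 in 4-cell embryos. The NOP56 counts were 785, 937 and 1533 at the 8-cell stage, 3181, 3063 and 2029 at the 16-cell stage and 1939.6, 1409 and 1416 in the blastocyst. For NOP56, every 8-cell library exceeded every 4-cell library, every 16-cell library exceeded every 8-cell library and every blastocyst library exceeded every GV library. The NOP56 difference was 3.26 (SE 0.38, adjusted p = 3.6e-06) at the 8-cell stage, 1.37 (SE 0.38, adjusted p = 0.0095) at the 16-cell stage and 2.90 (SE 0.38, adjusted p = 3.1e-06) in blastocysts against GV oocytes. FBL had 591, 450.0 and 328 in GV oocytes, 171, 157 and 169.9 in MII oocytes and 129.9, 109 and 107 in 4-cell embryos. The FBL counts were 562, 582 and 883 at the 8-cell stage, 3764, 2022 and 1444 at the 16-cell stage and 1973, 1982 and 1255 in the blastocyst. For FBL, every 8-cell library exceeded every 4-cell library, every 16-cell library exceeded every 8-cell library and every blastocyst library exceeded every GV library. FBL differed by 2.48 (SE 0.36, adjusted p = 5.6e-05) at the 8-cell stage, by 1.74 (SE 0.36, adjusted p = 0.0012) at the 16-cell stage and by 1.93 (SE 0.36, adjusted p = 1.9e-04) in blastocysts against GV oocytes.

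NOP58 counted 1064, 1236 and 1148 in GV oocytes, 1521, 1708 and 1586 in MII oocytes and 592, 966 and 814 in 4-cell embryos. The NOP58 counts were 2095, 1348 and 3244 at the 8-cell stage, 5708, 3922 and 4985 at the 16-cell stage and 4668, 2862 and 3920.4 in the blastocyst. For NOP58, every 8-cell library exceeded every 4-cell library, every 16-cell library exceeded every 8-cell library and every blastocyst library exceeded every GV library. The 4-cell libraries were the lowest of all. NOP58 differed by 1.43 (SE 0.30, adjusted p = 0.0025) at the 8-cell stage, by 1.20 (SE 0.30, adjusted p = 0.0048) at the 16-cell stage and by 1.70 (SE 0.30, adjusted p = 1.0e-04) in blastocysts against GV oocytes. With 8-cell replicate 2 and 16-cell replicate 1 left out together, the 16-cell rises of NOP56 and NOP58 missed the threshold (adjusted p = 0.066 and 0.087). Summed over the 3 genes, normalised counts were 808 to 1175 at the 4-cell stage, 2867 to 5661 at the 8-cell stage, 8458 to 12653 at the 16-cell stage and 6253 to 8581 in blastocysts. In blastocysts none of the 3 was called against the 16-cell stage, although the stage mean of each was lower there. For NOP56, every blastocyst library also fell below every 16-cell library.

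**Figure D4:**
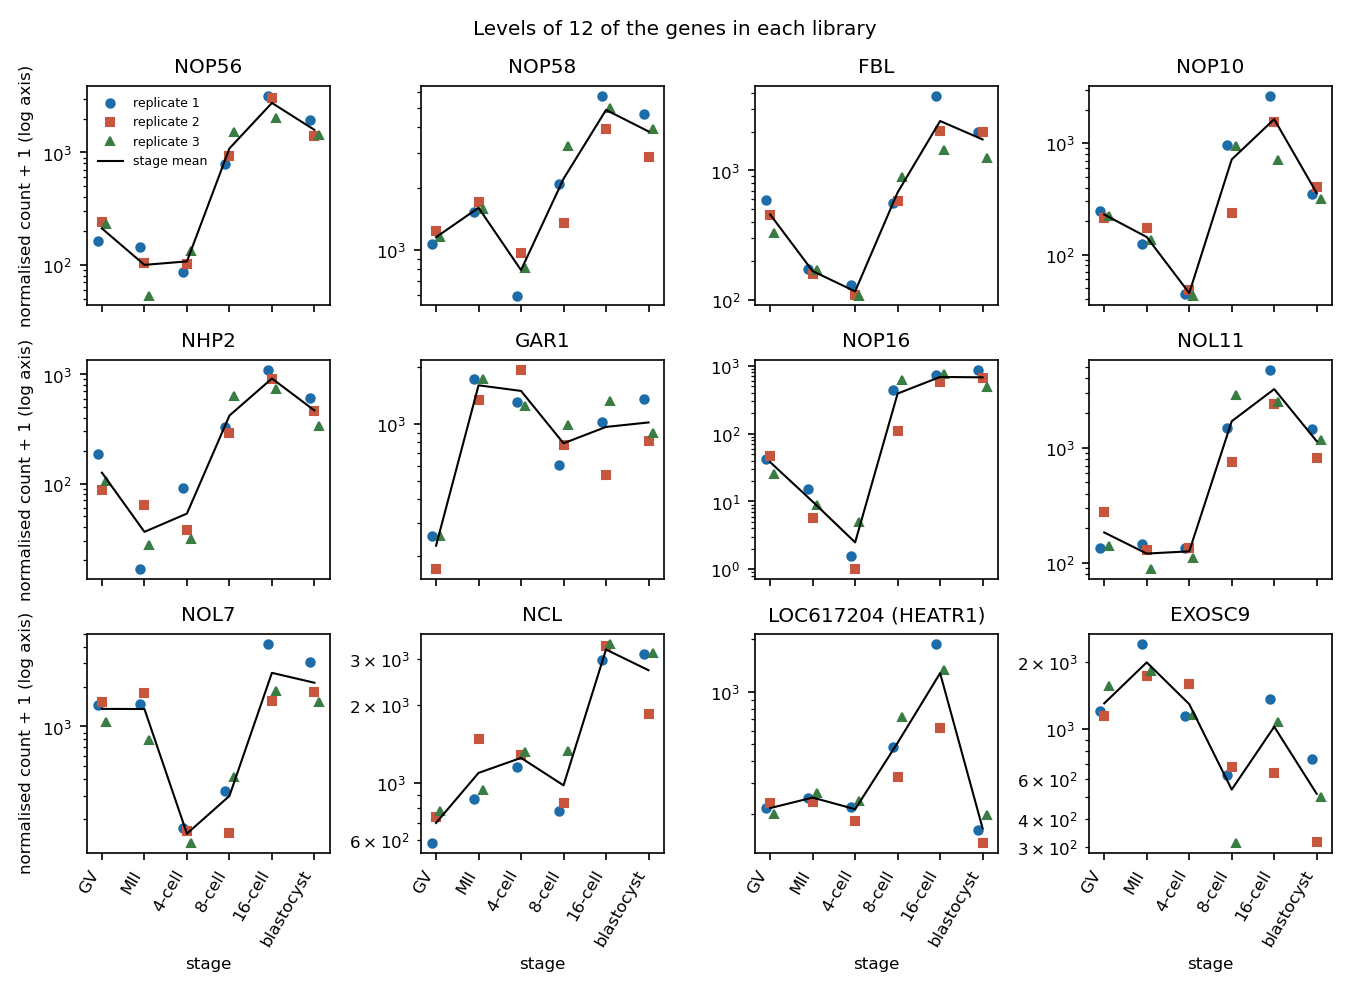
Normalised counts plus 1 on a log axis (y) by stage (x) for 12 of the genes, one panel each; points are single libraries and lines join stage means. NOP56, NOP58 and FBL climb at both the 8-cell and 16-cell stages, and GAR1 already in the MII oocyte.

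The 4 H/ACA core proteins form one particle and were called at different steps. DKC1 (dyskerin) is the pseudouridine synthase, GAR1, NHP2 and NOP10 are its partners, and the same proteins hold telomerase RNA. GAR1 was the only member that rose during oocyte maturation. GAR1 had 254, 169 and 254 in GV oocytes, 1739.8, 1338 and 1729 in MII oocytes and 1307, 1938 and 1245 in 4-cell embryos. The GAR1 counts were 605, 775 and 988 at the 8-cell stage, 1025, 536 and 1331 at the 16-cell stage and 1352, 807 and 894 in the blastocyst. For GAR1, every MII library exceeded every GV library and every blastocyst library exceeded every GV library. The difference was 2.82 (SE 0.35, adjusted p = 3.5e-04) in MII oocytes, with one of 2.14 (SE 0.35, adjusted p = 4.1e-05) in blastocysts against GV oocytes. NHP2 and NOP10 instead rose at the 8-cell stage. NOP10 had 246, 214 and 223 in GV oocytes, 123, 172 and 133 in MII oocytes and 43.3, 46.8 and 41.8 in 4-cell embryos. The NOP10 counts were 960.3, 235 and 950.2 at the 8-cell stage, 2664, 1569.8 and 705 at the 16-cell stage and 349, 402 and 318 in the blastocyst. For NOP10, every 8-cell library exceeded every 4-cell library and every blastocyst library fell below every 16-cell library. NOP10 differed by 3.65 (SE 0.50, adjusted p = 2.4e-05) at the 8-cell stage and by -2.0 (SE 0.50, adjusted p = 0.0038) in blastocysts against 16-cell embryos. NHP2 had 184, 86.2 and 104 in GV oocytes, 15.4, 63.2 and 26.6 in MII oocytes and 89.4, 36.7 and 30.0 in 4-cell embryos. The NHP2 counts were 332, 287 and 637 at the 8-cell stage, 1103, 915 and 733 at the 16-cell stage and 605, 463 and 333 in the blastocyst. For NHP2, every 8-cell library exceeded every 4-cell library and every blastocyst library exceeded every GV library. NHP2 differed by 2.97 (SE 0.53, adjusted p = 4.6e-04) at the 8-cell stage and by 1.90 (SE 0.53, adjusted p = 0.0054) in blastocysts against GV oocytes.

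DKC1 itself was called in no comparison. DKC1 had 1141, 1579.7 and 679.9 in GV oocytes, 1006, 789.6 and 749 in MII oocytes and 1267, 1679.9 and 1002 in 4-cell embryos. The DKC1 counts were 919.7, 721 and 736 at the 8-cell stage, 1028, 1268 and 906 at the 16-cell stage and 951, 1198 and 1022 in the blastocyst. Its largest stage-to-stage difference was -0.71, in 8-cell embryos, and its F test across stages was not called.

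Among small-subunit genes, 4 rose at the 8-cell stage. IMP3 and IMP4 bind the U3 snoRNA and its pairing site on the precursor, NOL11 belongs to the processome subcomplex linked to rRNA transcription, and UTP3 (Sas10) is a processome component. NOL11 had 135, 276 and 140.1 in GV oocytes, 144, 128 and 87.5 in MII oocytes and 133, 134 and 109.7 in 4-cell embryos. The NOL11 counts were 1473, 754 and 2849 at the 8-cell stage, 4725, 2403 and 2504 at the 16-cell stage and 1436, 819 and 1154 in the blastocyst. For NOL11, every 8-cell library exceeded every 4-cell library, every blastocyst library fell below every 16-cell library and every blastocyst library exceeded every GV library. NOL11 differed by 3.51 (SE 0.44, adjusted p = 8.0e-06) at the 8-cell stage, -1.46 (SE 0.44, adjusted p = 0.014) in blastocysts against 16-cell embryos and 2.65 (SE 0.44, adjusted p = 4.8e-05) in blastocysts against GV oocytes. UTP3 had 416, 516 and 410.0 in GV oocytes, 458, 672 and 589 in MII oocytes and 305, 427 and 294 in 4-cell embryos. The UTP3 counts were 1467, 547 and 1909.6 at the 8-cell stage, 1938, 1192 and 1308 at the 16-cell stage and 796, 440.4 and 579 in the blastocyst. For UTP3, every 8-cell library exceeded every 4-cell library and every blastocyst library fell below every 16-cell library. UTP3 differed by 1.76 (SE 0.39, adjusted p = 0.0038) at the 8-cell stage and by -1.29 (SE 0.39, adjusted p = 0.015) in blastocysts against 16-cell embryos. The blastocyst fall was not called for NOL11 without blastocyst replicate 2 or 16-cell replicate 1 (adjusted p = 0.069 and 0.077), nor with array weights (adjusted p = 0.051), nor for UTP3 without blastocyst replicate 2 or 16-cell replicate 1 (adjusted p = 0.074 and 0.066).

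IMP4 had 310.0, 208 and 112 in GV oocytes, 64.1, 17.8 and 49.8 in MII oocytes and 29.8, 93.7 and 28.7 in 4-cell embryos. The IMP4 counts were 428, 292 and 656 at the 8-cell stage, 1439, 988 and 811 at the 16-cell stage and 583, 569.6 and 602 in the blastocyst. For IMP4, every 8-cell library exceeded every 4-cell library and every blastocyst library exceeded every GV library. IMP4 differed by 3.20 (SE 0.53, adjusted p = 2.1e-04) at the 8-cell stage and by 1.57 (SE 0.53, adjusted p = 0.019) in blastocysts against GV oocytes, the last not called without GV replicate 3 (adjusted p = 0.11), nor with equal library medians (adjusted p = 0.056). IMP3 had 113, 25.4 and 38.1 in GV oocytes, 18.8, 15.8 and 13.7 in MII oocytes and 7.88, 1.13 and 13.1 in 4-cell embryos. The IMP3 counts were 137, 27.5 and 173 at the 8-cell stage, 1018, 446 and 186 at the 16-cell stage and 337, 312 and 78.4 in the blastocyst. For IMP3, every 8-cell library exceeded every 4-cell library and every 16-cell library exceeded every 8-cell library. In 16-cell replicate 1 the IMP3 count was above all other libraries. IMP3 differed by 3.27 (SE 0.82, adjusted p = 0.0097) at the 8-cell stage and by 2.26 (SE 0.82, adjusted p = 0.041) at the 16-cell stage. The 8-cell rise was not called without 8-cell replicate 3 or 4-cell replicate 2 (adjusted p = 0.058 and 0.062). The 16-cell rise was not called without 16-cell replicate 1 or 2 or 8-cell replicate 2 (adjusted p between 0.08 and 0.21), nor without the filter on low reads, with array weights or in a fit of both stages alone (adjusted p between 0.07 and 0.24), and was 1.49 without 8-cell replicate 2.

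The 16-cell stage added 8 further small-subunit genes. UTP6, a U3 snoRNP-associated protein, LOC617204 (HEATR1, Utp10 in yeast), UTP15 of the transcription-linked subcomplex, NOL6 (Utp22 in yeast), NOP14, UTP11L, NOL7 and RRP12, in yeast also an export factor, rose with IMP3. UTP6 had 444, 495 and 839.8 in GV oocytes, 383, 460.3 and 599.9 in MII oocytes and 630.0, 723 and 697 in 4-cell embryos. The UTP6 counts were 848, 954 and 1621 at the 8-cell stage, 2812, 2654 and 4542 at the 16-cell stage and 3343, 2184 and 3275 in the blastocyst. For UTP6, every 16-cell library exceeded every 8-cell library and every blastocyst library exceeded every GV library. UTP6 differed by 1.56 (SE 0.33, adjusted p = 0.0013) at the 16-cell stage and by 2.33 (SE 0.33, adjusted p = 8.0e-06) in blastocysts against GV oocytes. NOL6 had 857, 733 and 335 in GV oocytes, 398, 535 and 490.1 in MII oocytes and 221, 311 and 402 in 4-cell embryos. The NOL6 counts were 332, 455 and 710.0 at the 8-cell stage, 1878, 1776 and 1236 at the 16-cell stage and 195, 353 and 557 in the blastocyst. For NOL6, every 16-cell library exceeded every 8-cell library and every blastocyst library fell below every 16-cell library. NOL6 differed by 1.74 (SE 0.42, adjusted p = 0.0038) at the 16-cell stage and by -2.23 (SE 0.42, adjusted p = 3.9e-04) in blastocysts. LOC617204 had 217, 231 and 199 in GV oocytes, 247, 232 and 263 in MII oocytes and 219, 182 and 236 in 4-cell embryos. The LOC617204 counts were 483, 325 and 719 at the 8-cell stage, 1879.8, 618 and 1323 at the 16-cell stage and 162, 136 and 197 in the blastocyst. For LOC617204, the 16-cell and 8-cell ranges overlapped and every blastocyst library fell below every 16-cell library. LOC617204 differed by 1.25 (SE 0.40, adjusted p = 0.022) at the 16-cell stage and by -2.79 (SE 0.40, adjusted p = 2.0e-05) in blastocysts against 16-cell embryos. The 16-cell rise of LOC617204 was not called without 16-cell replicate 1 or 3 or 8-cell replicate 1 or 2 (adjusted p between 0.051 and 0.11), nor with equal library medians, with array weights or in a fit of both stages alone (adjusted p between 0.07 and 0.1).

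NOL7 had its own course, with a fall before activation and a recovery at the 16-cell stage. NOL7 had 1449, 1537 and 1085 in GV oocytes, 1482, 1793 and 787 in MII oocytes and 169.9, 161 and 131 in 4-cell embryos. The NOL7 counts were 324, 157 and 412 at the 8-cell stage, 4234, 1553 and 1839 at the 16-cell stage and 3089, 1806 and 1523 in the blastocyst. For NOL7, every 4-cell library fell below every MII library and every 16-cell library exceeded every 8-cell library. NOL7 differed by -3.03 (SE 0.42, adjusted p = 4.5e-04) in 4-cell embryos against MII oocytes and by 3.04 (SE 0.42, adjusted p = 3.1e-05) at the 16-cell stage. UTP15 had 666, 918 and 1161 in GV oocytes, 1228, 1316 and 1801 in MII oocytes and 717, 1064 and 965 in 4-cell embryos. The UTP15 counts were 409, 1074 and 642 at the 8-cell stage, 2629, 1234 and 1485 at the 16-cell stage and 765, 708 and 912 in the blastocyst. For UTP15, every 16-cell library exceeded every 8-cell library and every blastocyst library fell below every 16-cell library. UTP15 differed by 1.36 (SE 0.36, adjusted p = 0.0068) at the 16-cell stage, not called in a fit of both stages alone (adjusted p = 0.06), and by -1.09 (SE 0.36, adjusted p = 0.024) in blastocysts against 16-cell embryos, not called without blastocyst replicate 1 or 2 or 16-cell replicate 1 (adjusted p between 0.06 and 0.13), nor with array weights or in a fit of both stages alone (adjusted p = 0.1 and 0.051). RRP12 had 542, 416 and 209.8 in GV oocytes, 211, 227 and 157 in MII oocytes and 324, 611 and 346 in 4-cell embryos. The RRP12 counts were 346, 377 and 403 at the 8-cell stage, 1019, 1533 and 1104 at the 16-cell stage and 269.9, 766 and 672 in the blastocyst. For RRP12, every 16-cell library exceeded every 8-cell library and every blastocyst library fell below every 16-cell library. RRP12 differed by 1.67 (SE 0.42, adjusted p = 0.005) at the 16-cell stage and by -1.20 (SE 0.42, adjusted p = 0.034) in blastocysts. That last fall was not called without blastocyst replicate 1 or 16-cell replicate 2 (adjusted p = 0.22 and 0.11), nor with array weights or in a fit of both stages alone (adjusted p = 0.096 and 0.068) and was -0.74 without blastocyst replicate 1.

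Called once, NOP14 had 662, 573 and 457 in 16-cell embryos, against 97.7, 13 and 185 in 8-cell embryos without overlap, a difference of 3.03 (SE 0.66, adjusted p = 0.0016) that was 2.02 without 8-cell replicate 2. UTP11L had 3094, 1045 and 1451 in 16-cell embryos, against 293, 76.4 and 306 in 8-cell embryos without overlap, a difference of 3.11 (SE 0.54, adjusted p = 2.5e-04). UTP18, a processome component, moved the other way at the 8-cell stage, with 714, 478 and 773 in 8-cell embryos, against 1963, 1248 and 1383 in 4-cell embryos without overlap, a difference of -1.22 (SE 0.33, adjusted p = 0.016), which was not called without 8-cell replicate 2 or 4-cell replicate 1 (adjusted p = 0.056 and 0.1). Both UTP14A, which in yeast activates the helicase that releases U3, and NOL10 (Enp2 in yeast) were called only in blastocysts against 16-cell embryos. UTP14A had 709.9, 812 and 628 in blastocysts, against 1237, 1547 and 1310.3 in 16-cell embryos without overlap, a difference of -0.93 (SE 0.26, adjusted p = 0.0093) that was not called in a fit of both stages alone (adjusted p = 0.057). NOL10 had 543, 443 and 709 in blastocysts, against 867, 1135 and 1529 in 16-cell embryos without overlap, a difference of -1.04 (SE 0.34, adjusted p = 0.024) that was not called without blastocyst replicate 1 or 2 or 16-cell replicate 3 (adjusted p between 0.059 and 0.1), nor with array weights, with voom or in a fit of both stages alone (adjusted p between 0.061 and 0.085). RRP7A was called only over the whole series, with 99.3, 115 and 67.8 in blastocysts, against 12.3, 12 and 2.93 in GV oocytes without overlap, a difference of 3.01 (SE 0.81, adjusted p = 0.0046).

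In the 60S group NOP16 showed the largest difference of any member. NOP16 is a 60S assembly factor with 1, 0 and 3 reads in the 3 4-cell libraries. NOP16 had 41.7, 45.2 and 24.2 in GV oocytes, 14.5, 4.61 and 7.72 in MII oocytes and 0.563, 0 and 3.92 in 4-cell embryos. The NOP16 counts were 441, 110.0 and 617 at the 8-cell stage, 720.2, 579 and 755 at the 16-cell stage and 874, 666 and 487 in the blastocyst. For NOP16, every 8-cell library exceeded every 4-cell library and every blastocyst library exceeded every GV library. All 8-cell, 16-cell and blastocyst libraries lay above all oocyte and 4-cell libraries. NOP16 differed by 6.35 (SE 0.65, adjusted p = 5.9e-07) at the 8-cell stage and by 4.05 (SE 0.65, adjusted p = 3.3e-05) in blastocysts against GV oocytes. PES1, with BOP1 and WDR12, forms the PeBoW complex needed to process the 28S and 5.8S rRNA precursors. PES1 had 75.8, 60.1 and 33 in GV oocytes, 21.4, 19.1 and 34.3 in MII oocytes and 33.8, 26 and 53.5 in 4-cell embryos. The PES1 counts were 96.2, 155 and 285 at the 8-cell stage, 512, 664 and 332 at the 16-cell stage and 119, 255 and 205 in the blastocyst. For PES1, every 8-cell library exceeded every 4-cell library, every 16-cell library exceeded every 8-cell library and every blastocyst library exceeded every GV library. PES1 differed by 2.04 (SE 0.55, adjusted p = 0.015) at the 8-cell stage, 1.55 (SE 0.55, adjusted p = 0.036) at the 16-cell stage and 1.71 (SE 0.55, adjusted p = 0.015) in blastocysts against GV oocytes. PES1 was not called at the 8-cell stage without 8-cell replicate 3 or 4-cell replicate 1 or 2 (adjusted p between 0.052 and 0.087), nor in a fit of both stages alone (adjusted p = 0.066), at the 16-cell stage without 16-cell replicate 1 or 2 or 8-cell replicate 1 or 2 (adjusted p between 0.07 and 0.15), nor with equal library medians, with array weights or in a fit of both stages alone (adjusted p between 0.06 and 0.084), and over the whole series without blastocyst replicate 2 or GV replicate 3 (adjusted p = 0.069 and 0.073).

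The other PeBoW genes were called once each. BOP1 had 135, 299 and 219 in 16-cell embryos, against 44.2, 0.764 and 220.5 in 8-cell embryos with overlap, a difference of 2.60 (SE 0.98, adjusted p = 0.049). With 1 read in 8-cell replicate 2, that difference was 1.02 without this library and 3.95 without 8-cell replicate 3, and it was not called without 16-cell replicate 1, 2 or 3 or 8-cell replicate 1 or 2 (adjusted p between 0.051 and 0.35), nor without the filter on low reads, with array weights or in a fit of both stages alone (adjusted p between 0.12 and 0.16). WDR12 had 824, 380.1 and 597 in blastocysts, against 133, 142 and 199 in GV oocytes without overlap, a difference of 1.85 (SE 0.44, adjusted p = 0.0018).

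Further 60S genes rose at the 16-cell stage, among them NOL8, a nucleolar RNA-binding protein, NOP2, an rRNA cytosine methyltransferase, NOL9, a polynucleotide kinase, RRP8, an rRNA adenine methyltransferase, and RRP1B. NOL8 had 760.3, 834 and 654 in GV oocytes, 572, 653 and 506 in MII oocytes and 607, 424 and 769 in 4-cell embryos. The NOL8 counts were 232, 389 and 622 at the 8-cell stage, 3016, 2651 and 1856 at the 16-cell stage and 1021, 567 and 944 in the blastocyst. For NOL8, every 16-cell library exceeded every 8-cell library and every blastocyst library fell below every 16-cell library. The 16-cell libraries were above all others. NOL8 differed by 2.67 (SE 0.36, adjusted p = 2.4e-05) at the 16-cell stage and by -1.58 (SE 0.36, adjusted p = 0.0019) in blastocysts. RRP1B had 149, 102 and 167 in GV oocytes, 127, 108 and 37.8 in MII oocytes and 165, 139 and 136 in 4-cell embryos. The RRP1B counts were 75.6, 67.2 and 99.7 at the 8-cell stage, 587, 635 and 475 at the 16-cell stage and 286, 418 and 313 in the blastocyst. For RRP1B, every 16-cell library exceeded every 8-cell library and every blastocyst library exceeded every GV library. RRP1B differed by 2.75 (SE 0.45, adjusted p = 1.3e-04) at the 16-cell stage and by 1.27 (SE 0.45, adjusted p = 0.025) in blastocysts against GV oocytes, the last not called without blastocyst replicate 2 or 3 or GV replicate 2 (adjusted p between 0.052 and 0.1), nor with equal library medians (adjusted p = 0.089). NOP2 had 858, 476 and 440.1 in GV oocytes, 364, 497 and 451 in MII oocytes and 470.3, 265 and 226 in 4-cell embryos. The NOP2 counts were 308, 319.9 and 486 at the 8-cell stage, 1378, 1031 and 624 at the 16-cell stage and 384, 542 and 473 in the blastocyst. For NOP2, every 16-cell library exceeded every 8-cell library and every blastocyst library fell below every 16-cell library. NOP2 differed by 1.39 (SE 0.38, adjusted p = 0.0089) at the 16-cell stage and by -1.05 (SE 0.38, adjusted p = 0.042) in blastocysts against 16-cell embryos. The fall of NOP2 was not called without blastocyst replicate 1, 2 or 3 or 16-cell replicate 1 or 2 (adjusted p between 0.056 and 0.17), nor with array weights, with voom or in a fit of both stages alone (adjusted p between 0.053 and 0.15), and its rise was not called with array weights or in a fit of both stages alone (adjusted p = 0.054 and 0.057), nor with 8-cell replicate 2 and 16-cell replicate 1 left out together (adjusted p = 0.087).

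NOL9 had 12.3, 17 and 7.33 in GV oocytes, 8.54, 5.93 and 0 in MII oocytes and 30.4, 27.1 and 11.8 in 4-cell embryos. The NOL9 counts were 40.6, 13.7 and 27.6 at the 8-cell stage, 31.5, 316 and 327 at the 16-cell stage and 98.6, 209 and 304 in the blastocyst. For NOL9, the 16-cell and 8-cell ranges overlapped and every blastocyst library exceeded every GV library. NOL9 differed by 2.41 (SE 0.89, adjusted p = 0.044) at the 16-cell stage, not called without 16-cell replicate 2 or 3 or 8-cell replicate 1, 2 or 3 (adjusted p between 0.051 and 0.17), nor without the filter on low reads, with array weights, with voom or in a fit of both stages alone (adjusted p between 0.066 and 0.13), and by 3.59 (SE 0.89, adjusted p = 0.0023) in blastocysts against GV oocytes. RRP8 had 356, 138 and 178 in 16-cell embryos, against 3.56, 17.6 and 32.8 in 8-cell embryos without overlap, a difference of 3.56 (SE 0.84, adjusted p = 0.003). NIP7, which works in 60S assembly, had 469, 302 and 396 in blastocysts, against 930.3, 697 and 1331 in 16-cell embryos without overlap, a difference of -1.30 (SE 0.37, adjusted p = 0.0092).

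**Figure D5:**
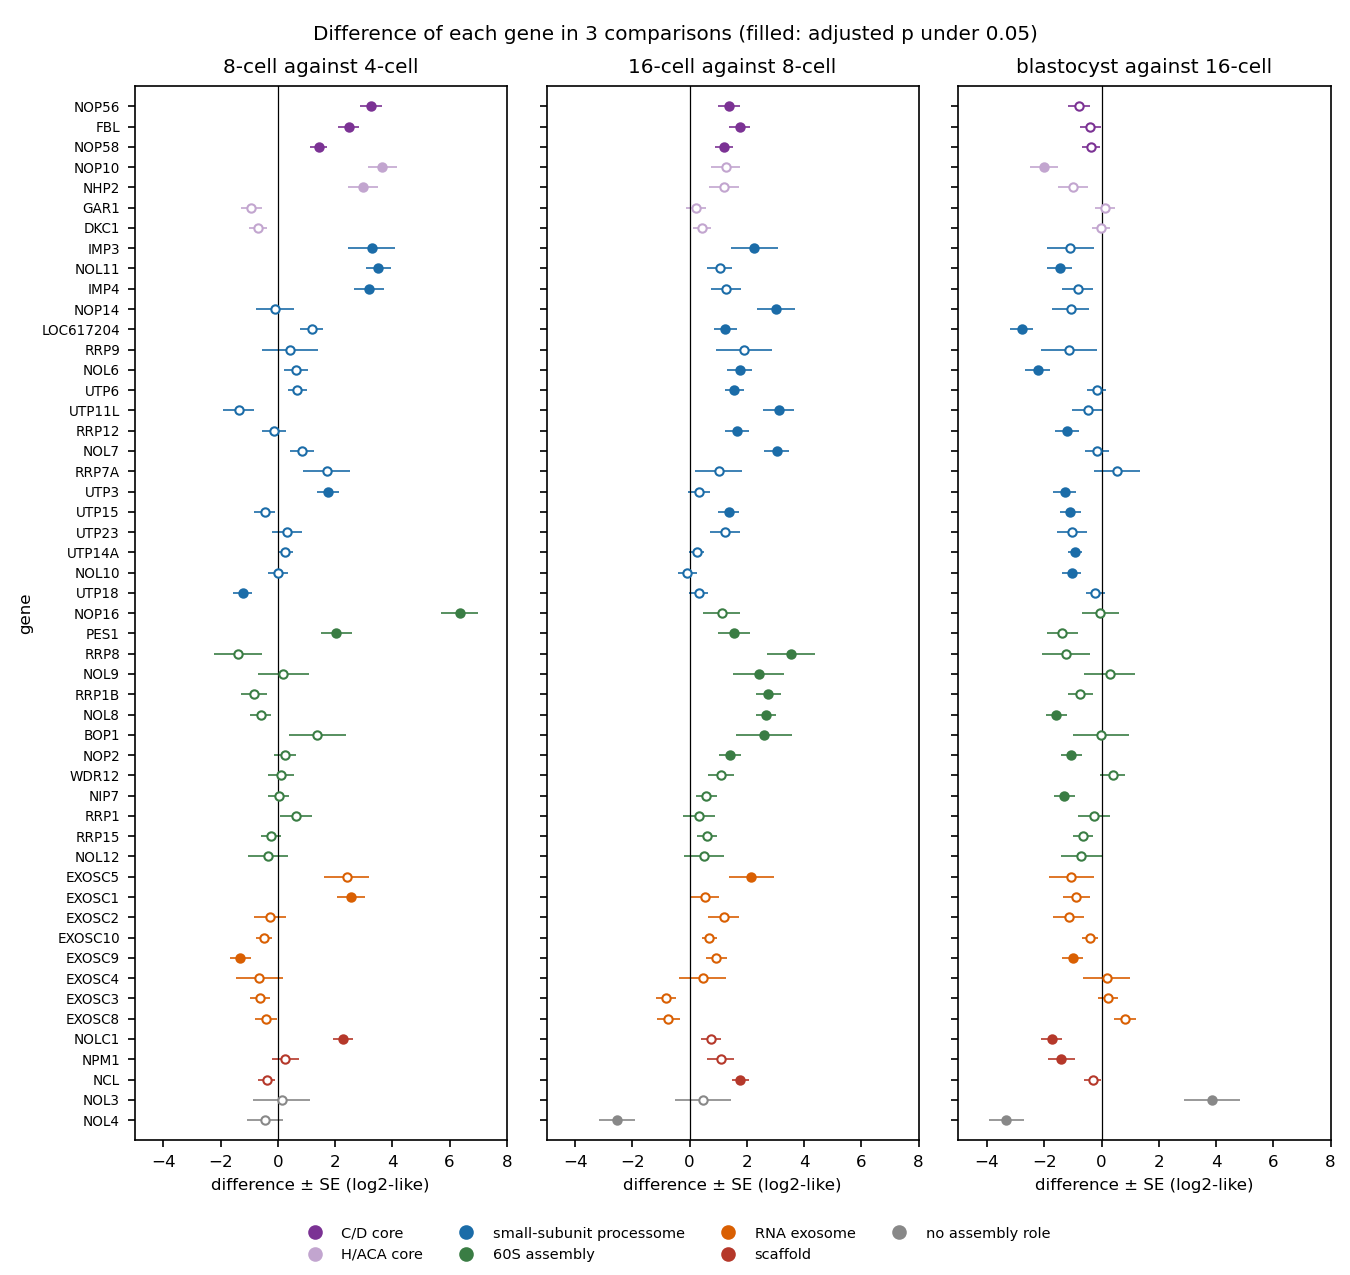
Differences in the deposited log2-like value (x axis), later stage minus earlier, for each of the 51 genes by role (y axis) in 3 comparisons of consecutive stages; bars are standard errors and filled points the called genes. At the 8-cell stage the called points lie mostly right of 0, up to 6.35 for NOP16, and in blastocysts mostly left of it, down to -3.32 for NOL4.

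Exosome genes were called in both directions. Summed over 8 subunits, normalised counts were 4456 to 4819 in GV oocytes, 5071 to 6122 in MII oocytes, 4249 to 5929 at the 4-cell stage, 3524 to 4086 at the 8-cell stage, 4133 to 5091 at the 16-cell stage and 2939 to 4228 in blastocysts. EXOSC1, a subunit of the RNA-binding cap, rose at the 8-cell stage with 652, 158 and 871 in 8-cell embryos, against 60.8, 91.4 and 70.5 in 4-cell embryos without overlap, a difference of 2.55 (SE 0.48, adjusted p = 8.7e-04). EXOSC5, a subunit of the ring, rose at the 16-cell stage with 152, 296 and 209.7 in 16-cell embryos, against 48.5, 15.3 and 106 in 8-cell embryos without overlap, a difference of 2.16 (SE 0.80, adjusted p = 0.044) that was not called without 16-cell replicate 2 or 3 or 8-cell replicate 1 or 2 (adjusted p between 0.076 and 0.19), nor with array weights or in a fit of both stages alone (adjusted p = 0.16 and 0.099). EXOSC9, another ring subunit, fell. EXOSC9 had 1209, 1144 and 1556 in GV oocytes, 2406, 1729 and 1815 in MII oocytes and 1140.3, 1585 and 1154 in 4-cell embryos. The EXOSC9 counts were 622, 682 and 311 at the 8-cell stage, 1363, 641 and 1073 at the 16-cell stage and 733, 315 and 498 in the blastocyst. For EXOSC9, every 8-cell library fell below every 4-cell library, the blastocyst and 16-cell ranges overlapped and every blastocyst library fell below every GV library. EXOSC9 differed by -1.32 (SE 0.37, adjusted p = 0.02) at the 8-cell stage, -1.0 (SE 0.37, adjusted p = 0.042) in blastocysts against 16-cell embryos and -1.40 (SE 0.37, adjusted p = 0.0036) in blastocysts against GV oocytes. Its 8-cell fall was not called without 8-cell replicate 3 or 4-cell replicate 2 (adjusted p = 0.12 and 0.093), and its fall after the 16-cell stage was not called without blastocyst replicate 2 or 3 or 16-cell replicate 1 or 3 (adjusted p between 0.08 and 0.21), nor without the filter on low reads, with array weights, with voom or in a fit of both stages alone (adjusted p between 0.064 and 0.14).

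EXOSC10, the nucleolar exonuclease (Rrp6 in yeast), was called in no comparison. EXOSC10 had 1200.2, 1079 and 1040.0 in GV oocytes, 1226, 1214 and 1045 in MII oocytes and 1166, 1265 and 1219.7 in 4-cell embryos. The EXOSC10 counts were 799.9, 716 and 1144 at the 8-cell stage, 1856, 1463 and 1019 at the 16-cell stage and 982, 1103 and 1111 in the blastocyst. Its ranges in consecutive stages overlapped except at the 8-cell stage, where all 3 libraries lay below the 4-cell libraries. EXOSC2, EXOSC3, EXOSC4 and EXOSC8 were called in no comparison either, and of these EXOSC3 and EXOSC8 were called in the F test over the 6 stages.

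The scaffold genes are NCL (nucleolin), NPM1 (nucleophosmin) and NOLC1 (Nopp140, a snoRNP chaperone). NCL, which binds the precursor early, rose at the 16-cell stage. NCL had 585, 738 and 775 in GV oocytes, 863, 1469 and 938 in MII oocytes and 1149.8, 1272 and 1315 in 4-cell embryos. The NCL counts were 777, 833 and 1319 at the 8-cell stage, 2979.7, 3357 and 3435 at the 16-cell stage and 3134, 1832 and 3167 in the blastocyst. For NCL, every 16-cell library exceeded every 8-cell library and every blastocyst library exceeded every GV library. The 3 GV libraries were the lowest of all. NCL differed by 1.77 (SE 0.30, adjusted p = 1.7e-04) at the 16-cell stage and by 1.91 (SE 0.30, adjusted p = 2.1e-05) in blastocysts against GV oocytes. NOLC1 had 313, 232 and 283 in GV oocytes, 279, 470.2 and 325 in MII oocytes and 518, 357 and 466 in 4-cell embryos. The NOLC1 counts were 2055, 1526 and 3164 at the 8-cell stage, 5461, 3729.8 and 2316 at the 16-cell stage and 896, 976 and 1420.0 in the blastocyst. For NOLC1, every 8-cell library exceeded every 4-cell library, every blastocyst library fell below every 16-cell library and every blastocyst library exceeded every GV library. NOLC1 differed by 2.27 (SE 0.35, adjusted p = 1.2e-04) at the 8-cell stage, -1.74 (SE 0.35, adjusted p = 7.2e-04) in blastocysts against 16-cell embryos and 1.96 (SE 0.35, adjusted p = 1.2e-04) in blastocysts against GV oocytes. NPM1 had 417, 229 and 432 in blastocysts, against 834, 937 and 1009.7 in 16-cell embryos without overlap, a difference of -1.41 (SE 0.47, adjusted p = 0.026), which was not called without blastocyst replicate 2 or 16-cell replicate 2 or 3 (adjusted p between 0.054 and 0.12), nor with array weights (adjusted p = 0.083). How reads that match several loci were counted is not given in the sources used here, so NPM1 and UTP14A, genes with near-identical copies in mammalian genomes, are uncertain.

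NOL3 and NOL4 carry nucleolar names only; NOL3 encodes an inhibitor of apoptosis. NOL4 fell to almost nothing. NOL4 had 95.8, 46.6 and 114 in GV oocytes, 102, 162 and 225 in MII oocytes and 195, 187 and 251 in 4-cell embryos. The NOL4 counts were 281, 97 and 131 at the 8-cell stage, 28.1, 28.2 and 14.8 at the 16-cell stage and 0, 1.10 and 0 in the blastocyst. For NOL4, every 16-cell library fell below every 8-cell library, every blastocyst library fell below every 16-cell library and every blastocyst library fell below every GV library. The 3 blastocyst libraries held 0, 1 and 0 reads of NOL4. NOL4 differed by -2.54 (SE 0.62, adjusted p = 0.0039) at the 16-cell stage, -3.32 (SE 0.62, adjusted p = 3.4e-04) in blastocysts against 16-cell embryos and -4.96 (SE 0.62, adjusted p = 1.7e-06) in blastocysts against GV oocytes, fitted values that for so few reads give no bound on a fold. The 16-cell fall of NOL4 was not called in a fit of both stages alone (adjusted p = 0.076). NOL3 had 10.4, 0 and 1.47 in GV oocytes, 27.3, 0 and 0.858 in MII oocytes and 0, 1.13 and 0 in 4-cell embryos. The NOL3 counts were 0, 2.29 and 0 at the 8-cell stage, 0, 0 and 11.1 at the 16-cell stage and 44, 118 and 31 in the blastocyst. For NOL3, every blastocyst library exceeded every 16-cell library and every blastocyst library exceeded every GV library. NOL3 differed by 3.85 (SE 0.99, adjusted p = 0.0047) in blastocysts against 16-cell embryos, not called with array weights (adjusted p = 0.055), and by 3.49 (SE 0.99, adjusted p = 0.0064) in blastocysts against GV oocytes. The 3 blastocyst libraries held 66, 108 and 32 reads of NOL3, against 0, 0 and 6 reads in 16-cell embryos.

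In all, 13 members (25.5%) were called in no stage-to-stage comparison: DKC1, EXOSC2, EXOSC3, EXOSC4, EXOSC8, EXOSC10, NOL12, RRP1, RRP7A, RRP9, RRP15, UTP23 and WDR12. The same share was not counted over all genes tested, so whether 13 of 51 is few or many cannot be said. The F test over the 6 stages did not call 9 members, DKC1, EXOSC2, EXOSC4, EXOSC10, NIP7, NOL12, RRP1, RRP9 and RRP15, although NIP7 fell in blastocysts against 16-cell embryos. The 8-cell against 4-cell and blastocyst against 16-cell comparisons share no library. Of the 13 genes that rose in the first and the 16 that fell in the last, NOL11, NOLC1, NOP10 and UTP3 were in both, that is 30.8% of the one list and 25% of the other. As 31.4% of all 51 members fell in blastocysts and 25.5% rose at the 8-cell stage, these shares are near those of the whole group.

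Other genes of the pathway, taken from textbook lists by symbol, were counted in the same comparisons. Their read counts are not given here, and where reads are few the differences give no bound on a fold. Of 22 tested genes of RNA polymerase I and its factors, 2 rose and 1 fell at the 8-cell stage, 6 rose and 1 fell at the 16-cell stage, and 1 rose and 8 fell in blastocysts against 16-cell embryos, with median differences of 0.30, 0.63 and -0.97, where those of all genes were 0, 0 and 0.18. TAF1D, a subunit of the polymerase I selectivity factor, differed by 9.09 (SE 0.74, adjusted p = 3.6e-08) at the 8-cell stage, and POLR1B, a catalytic subunit of the polymerase, by -1.53 (SE 0.31, adjusted p = 0.0017). TAF1A, of the same selectivity factor, differed by -2.30 (SE 0.36, adjusted p = 5.1e-05) in blastocysts.

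Of 40 other small-subunit factors, 5 rose and 3 fell at the 8-cell stage, 16 rose and 3 fell at the 16-cell stage, and 1 rose and 16 fell in blastocysts, with medians of 0.01, 1.11 and -1.04. PDCD11 (Rrp5 in yeast), needed for both subunits, differed by 2.36 (SE 0.34, adjusted p = 5.0e-05) at the 8-cell stage, 1.28 (SE 0.34, adjusted p = 0.0076) at the 16-cell stage and -1.72 (SE 0.34, adjusted p = 6.2e-04) in blastocysts. RIOK2, a kinase of late 40S maturation, differed by 2.97 (SE 0.59, adjusted p = 7.8e-04) at the 16-cell stage, and the related kinase RIOK3 by -3.0 (SE 0.29, adjusted p = 1.1e-06). NHP2L1, the C/D box protein that binds the guide RNA directly, differed by -2.60 (SE 0.39, adjusted p = 2.9e-05) in blastocysts.

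Of 57 other large-subunit factors, 9 rose and 3 fell at the 8-cell stage, 25 rose and 3 fell at the 16-cell stage, and 2 rose and 12 fell in blastocysts, with medians of 0.30, 1.00 and -0.49. EIF6, which keeps new 60S subunits from joining 40S subunits, differed by 2.76 (SE 0.35, adjusted p = 8.8e-06) at the 8-cell stage and by -1.20 (SE 0.35, adjusted p = 0.011) in blastocysts. At the 16-cell stage BRIX1 differed by 2.39 (SE 0.40, adjusted p = 1.7e-04), while the 60S export adaptor NMD3 differed by -1.34 (SE 0.33, adjusted p = 0.0044) and SBDS, which helps release EIF6, by -1.05 (SE 0.27, adjusted p = 0.0052). Of 11 exosome partners, 3 rose and 1 fell at the 8-cell stage, 5 rose and 3 fell at the 16-cell stage, and 1 rose and 4 fell in blastocysts, with medians of -0.01, 0.58 and -0.57. The shares of all genes called are those given above for each comparison. C1D, a cofactor of EXOSC10, differed by 4.20 (SE 0.43, adjusted p = 6.9e-07) at the 8-cell stage and by -1.69 (SE 0.43, adjusted p = 0.0054) at the 16-cell stage. In MII oocytes against GV oocytes 1 gene of the 4 lists was called, POLR2L, a subunit shared by the RNA polymerases, with a difference of -5.0 (SE 0.75, adjusted p = 0.0024), and in 4-cell embryos against MII oocytes none was.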

How the data were processed

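RNA of 18 pools was amplified with mixed random and poly(A) priming and sequenced as single reads, without strand, so overlapping and antisense genes cannot be told apart. Per the submitters' processing notes, CASAVA 1.6, TopHat2 2.0.3, HTSeq, DESeq and the build UMD3.1 were used. The deposited table holds log2-like variance-stabilised values on a log2 scale, made by the authors with DESeq. All 390024 values could be turned back into whole reads (tolerance 1e-08), and the library factors matched median-of-ratios size factors in 18 of 18 libraries (tolerance 1e-10). Reads are 2438473 to 11971840 per library, so one read is worth 0.563 to 2.82 normalised counts.

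Deposited values were tested with limma 3.58.1 in R 4.3.3, with a variance trend, over the 17138 genes that had 1 or more reads in 3 or more libraries; calls are at an adjusted p under 0.05. Reads were used for shares, exact permutation tests and voom. The reported tests are unpaired. For 16-cell embryos and blastocysts every same-numbered correlation of deviations was over 0.1 (0.108 to 0.134), which meets the rule for pairing from the data, not the labels; the replicate block enters only as an alternative. Alternatives were no filter, equal library medians, array weights, voom, a replicate block, only both stages' libraries, and leaving out libraries. LOC617204 was placed by its RefSeq name (ARS-UCD2.0 table, names only). The members and lists were chosen with earlier results of these data known. Genes named with values were those called in each comparison (up to 25), the highest deposited value of each role (not corrected for length), and, with every library, those called in at least 2 comparisons.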

Additional observations from a re-analysis of the deposited data

How the results depend on the processing

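Of 75 calls of single genes, 47 were kept in every alternative run and 28 were lost in at least 1; over 954 pairs of call and alternative 118 were lost and none changed sign. Calls lost numbered 4 without the filter on low reads, 4 with library medians set equal, 4 with voom, 15 with array weights, 16 with only the libraries of both stages, and 11 of the 54 calls in comparisons with an 8-cell or 16-cell stage without 8-cell replicate 2 and 16-cell replicate 1 (chosen after seeing the data). The members called moved by more than 1.5 times as follows, and the cause was not tested. With array weights they were 8 in MII against GV (1 in the test as reported), 7 in 4-cell against MII (1) and 9 in blastocyst against 16-cell (17). Calls over all genes moved as well, to 255 higher and 593 lower, 272 and 731, and 2269 and 1770 in these comparisons in turn. In the test as reported they were 17 and 105, 11 and 125, and 3117 and 2250. With only the libraries of both stages, where the spread rests on fewer libraries, the members called were 4 in MII against GV, 3 in 4-cell against MII, 13 in 16-cell against 8-cell (22) and 11 in blastocyst against 16-cell. Calls over all genes were then 153 higher and 405 lower, 79 and 381, 1198 and 1313, and 2300 and 1628. For 16-cell against 8-cell the test as reported gave 2537 and 2800. Leaving out 1 replicate gave 1 to 1 in both pre-activation comparisons, 12 to 17 in 8-cell against 4-cell (15), 17 to 31 in 16-cell against 8-cell, 10 to 15 in blastocyst against 16-cell, 17 to 21 in blastocyst against GV (19), and 41 to 44 in the F test (42). Over all genes, 4 to 11 were then called higher and 15 to 55 lower in MII against GV. In 4-cell against MII these were 3 to 8 and 55 to 91. They were 1100 to 1957 and 365 to 721 in 8-cell against 4-cell. In 16-cell against 8-cell they were 1756 to 2772 and 2389 to 2754. Blastocysts had 2359 to 3285 and 1888 to 2196 against 16-cell, and 3673 to 3834 and 3093 to 3160 against GV. For the F test, calls over all genes were not counted in the alternative runs.

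Setting library medians equal moved the median difference of all genes from 0 to 0.31 in MII against GV, 0.12 in 4-cell against MII, -0.24 in 8-cell against 4-cell and -0.12 in 16-cell against 8-cell, from 0.18 to -0.17 in blastocyst against 16-cell and from 0.26 to -0.02 in blastocyst against GV. With the replicate block the members called were 1, 1, 16, 25, 17 and 20 in the 6 comparisons and 43 in the F test, and none of the 75 calls was lost. Calls over all genes were then 32 higher and 148 lower, 18 and 144, 1555 and 813, 2716 and 2909, 3228 and 2402, and 4537 and 3600. The labels do not say what the replicate numbers mark. Correlations of same-numbered libraries were -0.108 to 0.202 over the 15 pairs of stages, and 14 of 18 libraries were closest to their own number, a hint from the data that the numbers may be shared. Depth limits the genes with few reads, among them NOL3, NOL4, NOL9, NOP16 before activation and BOP1 in 8-cell replicate 2. The same holds for IMP3 with 26 reads over the 4-cell libraries, RRP8 with 53 over the 8-cell libraries and RRP7A with 34 over the GV libraries.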
